A study of Mus musculus with 12 samples.

Results

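A set of 9 genes of epithelial adhesion and cell junctions was examined out of the 55573 genes in the count table: Cdh1, Epcam, Ocln, Cldn3, Cldn4, Cldn7, Esrp1, Itgb4 and Dsp. They were taken as a list of symbols, matched to the table by Ensembl identifier, and all 9 were found. The list was drawn up with Itgb4 already known to be higher after induction in these libraries, so the differences with induction given for the 9 genes are a description with no test. Cultures of mouse embryonic fibroblasts (MEFs) from 3 embryos of strain C57BL/6 (E13.5) were each divided over 4 groups that were grown for 72 h in medium for induced pluripotent stem cells. All 12 cultures carried the doxycycline-inducible cassette (i4F) for OCT4, SOX2, KLF4 and MYC (OSKM). The MEF group received no addition, the MEF+B12 group 2 µM vitamin B12, the OSKM group 1 µg/mL doxycycline, and the OSKM+B12 group both. Each embryo, called a clone in the labels, gave 1 poly(A) RNA library to every group (3 libraries per group), and the uninduced groups had no doxycycline, so the drug and the factors cannot be told apart. The MEFs are primary cultures of whole embryo tissue and not a single cell type.

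Epithelial cells hold to each other and to the matrix through specialised membrane complexes. In adherens junctions E-cadherin (Cdh1) joins neighbouring cells through catenins, in tight junctions occludin (Ocln) and claudins (Cldn3, Cldn4, Cldn7) seal the space between cells, in desmosomes desmoplakin (Dsp) ties desmosomal cadherins to keratin filaments, and in hemidesmosomes the integrin chain β4 (Itgb4) anchors the cell to laminin-332. Epcam is a surface adhesion protein and Esrp1 a splicing regulator of epithelial cells. Fibroblasts are mesenchymal, and a switch from mesenchymal to epithelial gene expression is a known early step when fibroblasts are reprogrammed by OSKM.

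The libraries held 56971244 to 79236795 counted read pairs, and 24880 to 25728 genes had at least 1 count. In the OSKM library of clone 1 the pseudogenes stood apart, with 120 of 1519 more than 2-fold from their own expected level against at most 9 in each of the other 11 libraries, so the members' fitted differences and the junction gene calls over all 3 clones are also given without it. Of the 4 induced factors, Pou5f1 and Sox2 checked the labels most clearly. Pou5f1, which encodes OCT4, had a mean of 0.282 ± 0.248 CPM (counts scaled to a common library size, SD, n = 3) in MEF and 13.6 ± 9.28 in OSKM. Sox2 rose from 0.519 ± 0.140 to 10.4 ± 7.06, and Myc from 19.2 ± 3.09 to 39.1 ± 17.2. Klf4 did not rise: its log2 CPM differed by -0.19, -0.23 and -0.06 in clones 1 to 3 without B12. With B12 it differed by -0.06, -0.02 and -0.13. The 8 fibroblast markers summed to between 88708 and 141656 CPM in every library. The 6 epithelial keratin genes summed to between 6.49 and 10.0 CPM in the uninduced libraries, and to 10.4 to 30.1 CPM in OSKM and 8.71 to 27.7 CPM in OSKM+B12. By these markers all 12 libraries were those of fibroblast cultures with little epithelial RNA. In bulk RNA a gene carried by few cells and a gene carried weakly by many cells cannot be told apart.

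CPM values use library sizes scaled by the trimmed mean of M-values (TMM). Counts of 3 or fewer were treated as the floor of detection, which was 0.0379 to 0.0527 CPM in single libraries. A fold against a group with no count is given as a bound against 3 counts, and one against a group with 1 to 3 counts as a ratio with its counting interval. Itgb4 was the only one of the 9 genes with more than 100 counts in any library. Over the 12 libraries it had 5919 counts, Dsp 341, Cdh1 217, Cldn7 75, Ocln 62, Epcam 44, Cldn3 42, Cldn4 4 and Esrp1 1. Of the 9, 4 (Itgb4, Dsp, Cdh1 and Cldn7) passed the filter on low counts and could be tested, and the other 5 could not. Cdh1 and Cldn7 had few counts in the uninduced libraries, so passing the filter is no evidence of a difference. Each of the 9 genes shared at most 0.41% of its 31-base words with other genes, and the genes that overlap Cldn3, Esrp1, Itgb4 and Dsp lie on the opposite strand, which the counting kept apart.

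**Figure D1:**
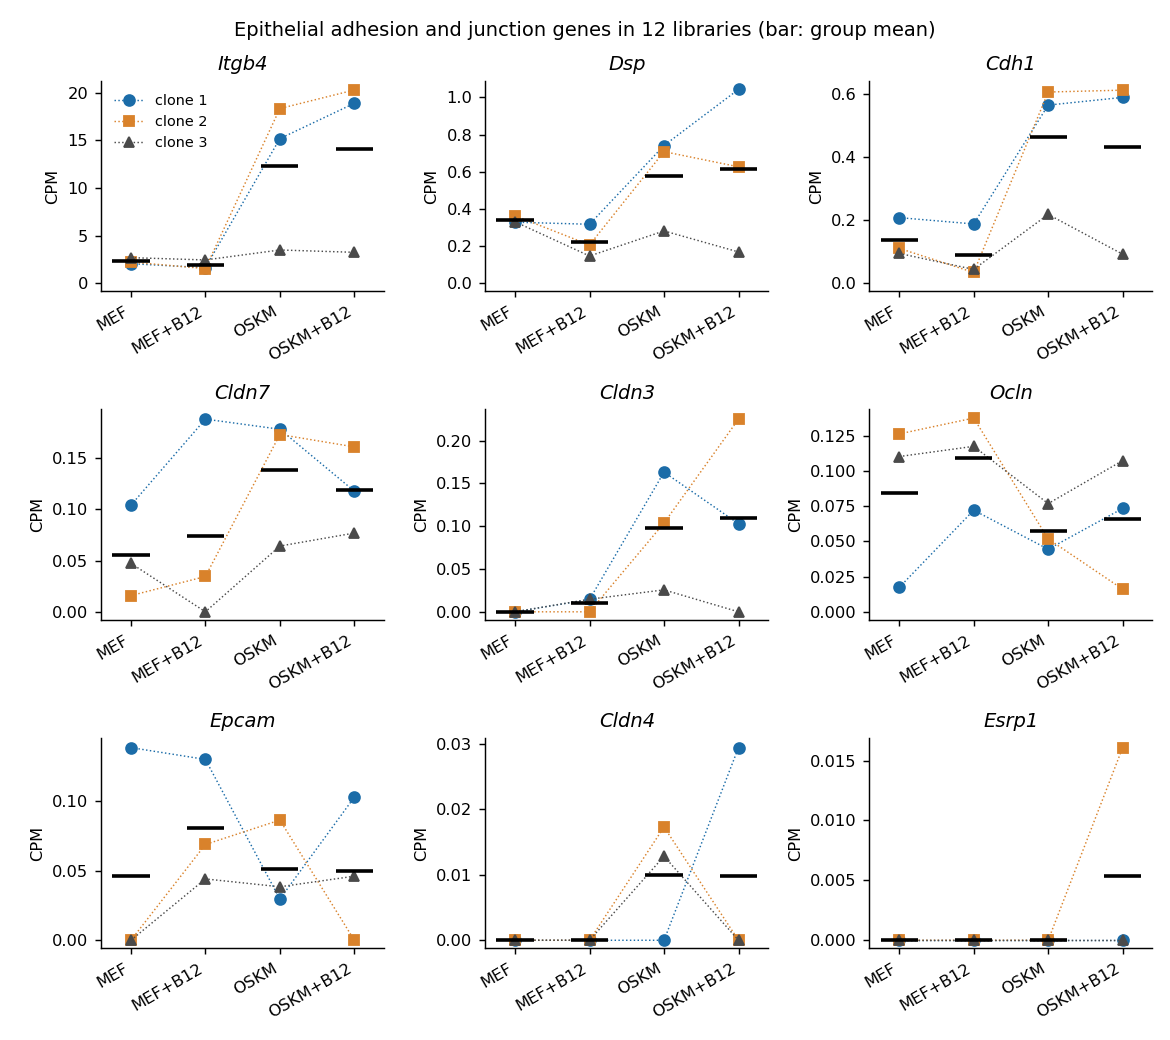
CPM (linear axis, own scale per gene) of the 9 genes in the 12 libraries, with groups on the horizontal axis, clones as symbols joined by dotted lines and the group mean as a bar. With induction Itgb4 reached 15.2 to 20.3 CPM for clones 1 and 2 and 3.26 to 3.50 for clone 3, against 1.55 to 2.70 in the 6 uninduced libraries.

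Per length of exon, Itgb4 stood above the other 8 genes in all 4 groups. Its level per kilobase was 0.332 ± 0.0470 CPM in MEF (SD, n = 3) and 1.76 ± 1.11 in OSKM. In MEF the next levels per kilobase were 0.0353 ± 0.00201 for Dsp, 0.0301 ± 0.0134 for Cdh1, 0.0286 ± 0.0229 for Cldn7, 0.0210 ± 0.0364 for Epcam and 0.0201 ± 0.0140 for Ocln. The ranges of these 5 genes overlapped from each to the next, so their order in MEF was not resolved, and Cldn3, Cldn4 and Esrp1 had no count. In OSKM the order after Itgb4 was Cdh1 (0.101 ± 0.0465 CPM per kilobase), Cldn3 (0.0774 ± 0.0548), Cldn7 (0.0710 ± 0.0330), Dsp (0.0598 ± 0.0265), Epcam (0.0235 ± 0.0139) and Ocln (0.0137 ± 0.00403), again with every pair of neighbours overlapping, and Cldn4 (0.00553) and Esrp1 (no count) came last.

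Several partners of these proteins had a higher mean level per length than any of the 9 members. β-catenin (Ctnnb1), which binds the tail of cadherins, had 158 CPM per kilobase in MEF and 153 in OSKM, and N-cadherin (Cdh2), the mesenchymal cadherin, had 8.90 and 7.43. Plakoglobin (Jup), the desmosomal catenin, had 7.69 and 9.77 CPM per kilobase, and Tjp1, the tight junction scaffold ZO-1, had 9.73 and 10.1. The β4 partner chain integrin α6 (Itga6) had 3.15 and 2.52, and plectin (Plec), which links β4 to keratin, had 13.2 and 10.8. The mean level of Itgb4 was below that of its partner chain in both groups, by less in OSKM. There the libraries overlapped, with 0.499 to 2.61 CPM per kilobase for Itgb4 and 2.03 to 3.20 for Itga6. Other junction genes lay below Itgb4 per length, such as the desmosomal plaque genes Pkp1 (0.377 CPM per kilobase in OSKM) and Evpl (0.202).

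**Figure D2:**
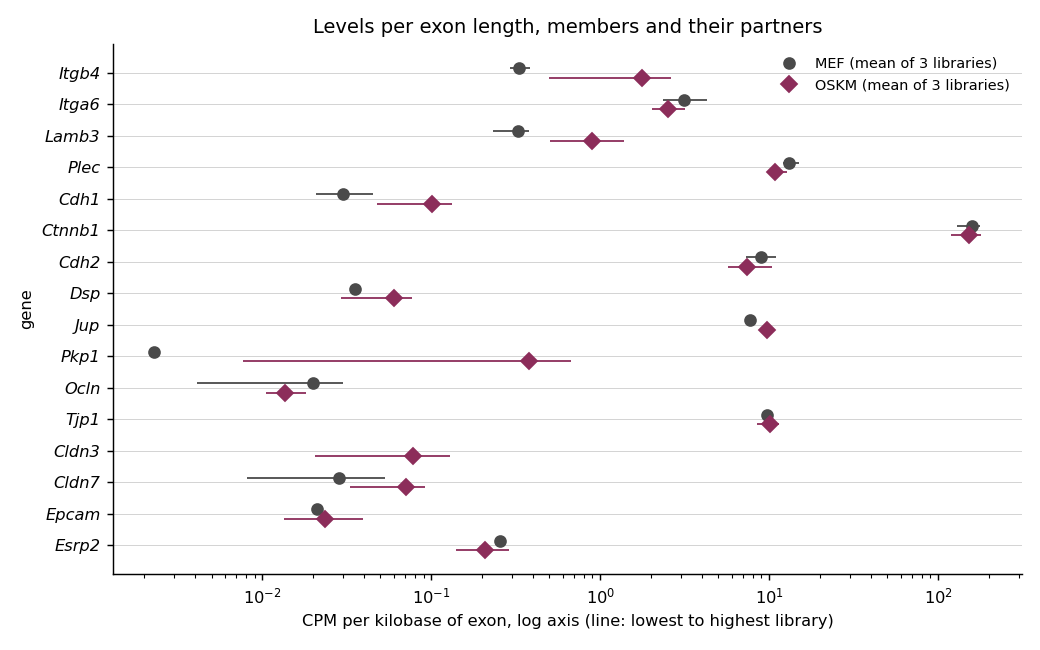
Mean CPM per kilobase of exon (log axis) in MEF and OSKM for members of the list and junction partners, with lines from the lowest to the highest library (no line where a library was at 0, no point for Cldn3 in MEF, where every library was at 0). Itgb4 moved from 0.332 to 1.76, while Itga6 went from 3.15 to 2.52 and Ctnnb1 from 158 to 153.

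Itgb4 (ENSMUSG00000020758) lies on the forward strand of chromosome 11 at 115974709 to 116008412 (GRCm38). In MEF clones 1, 2 and 3 it had 2.06, 2.23 and 2.70 CPM (119, 141 and 171 counts), and in MEF+B12 1.65, 1.55 and 2.46 CPM. In OSKM the same clones had 15.2, 18.3 and 3.50 CPM (1024, 1061 and 273 counts), and in OSKM+B12 18.9, 20.3 and 3.26 CPM. Every induced library was above every uninduced library, but the 2 induced libraries of clone 3 were nearer to the uninduced ones than to those of the other clones. The fitted log2 difference was 2.15 ± 0.58 (SE) without B12 and 2.61 ± 0.60 with it, and it rose to 2.96 and 3.60 when clone 3 was left out. Without the OSKM library of clone 1 it was 2.01 and 2.64. For this contrast 0.073% of the 19174 genes tested passed an adjusted p of 0.05 without B12 and 0.104% with B12, in both cases upwards, and nothing is read from it for a gene chosen on the same contrast.

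The size of the Itgb4 difference depended on the clone. On the log2 CPM scale with a prior count of 2, clones 1, 2 and 3 differed by 2.86, 3.02 and 0.37 without B12, and by 3.50, 3.68 and 0.40 with B12. An F test of clone by state, which asks if the 3 clones responded unequally, gave an adjusted p of 0.00027 (edgeR quasi-likelihood test). It used the same induced and uninduced libraries through which the gene was chosen, so it is no independent support for the rise. In that test 2.15% of the 19174 genes passed. Leaving out clone 1 or clone 2 gave 0.000388 and 0.00335, and leaving out the OSKM library of clone 1 gave 0.000111. Leaving out clone 3 gave 0.882, and no other gene passed there either, so clones 1 and 2 were not told apart. The same test gave 0.395 for Cdh1, 0.418 for Cldn7 and 0.384 for Dsp, all short of the threshold. Of the induced factors, Pou5f1 and Sox2 reached lower levels in clone 3 too. Pou5f1 had 19.3, 18.5 and 2.86 CPM in OSKM clones 1, 2 and 3 and 20.7, 19.0 and 2.33 in OSKM+B12. Sox2 had 15.5, 13.3 and 2.33 CPM in OSKM, then 15.9, 17.8 and 2.18 in OSKM+B12. The clone difference in response passed for Sox2 (adjusted p 0.0156) and not for Pou5f1 (0.352), whose MEF library of clone 3 had 0 counts, so that its fold there is set by the prior count. The part of the factor levels in the members' values was not tested.

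Dsp (chromosome 13, 38151294 to 38198577, forward strand) had 0.329, 0.364 and 0.331 CPM in MEF clones 1 to 3 and 0.318, 0.207 and 0.147 in MEF+B12. In OSKM it had 0.742, 0.709 and 0.282 CPM, and in OSKM+B12 1.04, 0.627 and 0.169 CPM. As for Itgb4, the induced libraries of clones 1 and 2 were the 4 highest, while those of clone 3 lay within the range of the uninduced libraries, so the groups overlapped. The fitted log2 difference with induction was 0.65 without B12 and 1.35 with it (0.74 and 1.36 without the OSKM library of clone 1).

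Cdh1 (chromosome 8, 106603351 to 106670246, forward strand) had 12, 7 and 6 counts in MEF clones 1 to 3 and 13, 2 and 3 in MEF+B12. It had 38, 35 and 17 counts in OSKM, then 40, 38 and 6 in OSKM+B12. Both clones 1 and 2 reached 0.564 to 0.611 CPM when induced, above every other library. In clone 3 the OSKM library, with 0.218 CPM, was above all 6 uninduced libraries, but the OSKM+B12 library, with 0.0922 CPM, was not. The fitted log2 difference was 1.74 without B12 and 2.16 with it (2.00 and 2.20 without the OSKM library of clone 1). E-cadherin transcripts in OSKM thus came to a mean of 0.101 CPM per kilobase. In the same libraries N-cadherin had 7.43 and another cadherin, Cdh3, had 13.9.

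Of the claudins, Cldn3 (chromosome 5, 134986214 to 134987472, forward strand) went from no count to a few. MEF clones 1 to 3 had 0, 0 and 0 counts and MEF+B12 1, 0 and 1. The counts were 11, 6 and 2 in OSKM but 7, 14 and 0 in OSKM+B12. Over the group this was at least 5.97-fold higher in OSKM than in MEF, taking 3 counts over the 3 MEF libraries as the floor, and at least 3.71-fold without the OSKM library of clone 1. With B12 the ratio of the summed counts, 21 against 2, was 10.8 (95% exact interval 2.64 to 94.8, counting error only). Nearly all the counts came from clones 1 and 2, which is the same split as for Itgb4.

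Cldn4 lies 39279 bases from Cldn3 on chromosome 5 (134945119 to 134946934, reverse strand). It had 4 counts in all, 1 in each of the OSKM libraries of clones 2 and 3 and 2 in the OSKM+B12 library of clone 1, and both states were at or under the floor, so no fold is given. The 6 uninduced libraries had 0 counts, which allows up to 0.0158 CPM over the MEF group. Cldn7 (chromosome 11, 69964779 to 69967885, forward strand) had 6, 1 and 3 counts in MEF, 13, 2 and 0 in MEF+B12, 12, 10 and 5 in OSKM, then 8, 10 and 5 in OSKM+B12. Its groups overlapped in both media, through the 13 counts of the MEF+B12 library of clone 1 and the 6 counts of the MEF library of the same clone. The fitted log2 difference was 1.29 without B12 and 0.74 with it (1.62 and 0.77 without the OSKM library of clone 1).

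The 3 remaining genes showed no shift with induction that these counts could resolve. Ocln (chromosome 13, 100496507 to 100552718, reverse strand) had 1, 8 and 7 counts in MEF, 5, 8 and 8 in MEF+B12, 3, 3 and 6 in OSKM, then 5, 1 and 7 in OSKM+B12. The ratio of its summed counts was 0.707 for OSKM over MEF (95% exact interval 0.305 to 1.59) and 0.636 with B12 (0.292 to 1.33). Epcam (chromosome 17, 87635979 to 87651129, forward strand) had 8, 0 and 0 counts in MEF, 9, 4 and 3 in MEF+B12, 2, 5 and 3 in OSKM, then 7, 0 and 3 in OSKM+B12. Its ratios were 1.18 (0.418 to 3.43) and 0.642 (0.260 to 1.50), so a change within those intervals would not have been detectable at this depth. Esrp1 (chromosome 4, 11331933 to 11386783, reverse strand) had a single count, in the OSKM+B12 library of clone 2, which is under the floor. Esrp2, its paralogue with the same role in splicing, was present at 1.10 ± 0.0682 CPM in MEF and 0.898 ± 0.323 in OSKM (SD, n = 3). Counting error only is covered by all these intervals and floors.

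Promoter sequence is shown for 3 of these genes because Cldn3 and Cldn4 are neighbours of which only Cldn3 gained more than the floor of counts, and Epcam had 8 to 16 summed counts in every group. The 250 bases before the annotated start are printed 5′ to 3′ on the strand of the gene (RefSeq, GRCm38.p6), in lower case with the E-box CAGGTG and its reverse complement CACCTG in capitals. This E-box is the sequence bound by the SNAI and ZEB repressors of epithelial genes.
Cldn3, chr5:134985964-134986213, forward strand: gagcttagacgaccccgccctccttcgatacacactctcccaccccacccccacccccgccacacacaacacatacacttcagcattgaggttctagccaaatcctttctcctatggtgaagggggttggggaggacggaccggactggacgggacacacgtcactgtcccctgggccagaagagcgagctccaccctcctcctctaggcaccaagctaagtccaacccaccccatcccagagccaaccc
Cldn4, chr5:134946935-134947184, reverse strand: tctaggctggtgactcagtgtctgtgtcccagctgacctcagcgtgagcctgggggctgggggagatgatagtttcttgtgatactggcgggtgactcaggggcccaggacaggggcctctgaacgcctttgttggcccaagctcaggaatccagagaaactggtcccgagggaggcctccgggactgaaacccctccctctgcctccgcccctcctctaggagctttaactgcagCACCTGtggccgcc
Epcam, chr17:87635729-87635978, forward strand: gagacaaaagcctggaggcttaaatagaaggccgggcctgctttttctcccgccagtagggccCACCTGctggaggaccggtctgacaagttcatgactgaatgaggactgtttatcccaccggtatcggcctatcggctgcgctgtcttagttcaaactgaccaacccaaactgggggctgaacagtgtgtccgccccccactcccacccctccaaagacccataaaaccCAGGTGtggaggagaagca
Cldn4 had 1 match, 14 bases before the start, and Epcam 2, at 187 and 19 bases, counted to the first base of the match. No match was found in the same window of Cldn3, Cldn7, Ocln or Dsp. Of the 32851 windows of this length in the table, 5657 (17.2%) held a match on either strand, against 2 of the 6 members with a window. A match is a description of these letters only.

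Of the 4 members tested, 0 passed the threshold for B12 in induced or uninduced cells by edgeR. An unadjusted p under 0.05 was reached by 0 of them, beside 1883 and 1972 of the 19174 genes tested. DESeq2 did not call Itgb4 either (adjusted p 0.983 and 0.998) and gave no adjusted p for Dsp, Cdh1 and Cldn7. In OSKM cells, where 1.06% of the 19174 genes passed, the log2 difference with B12 was 0.18 for Itgb4 (95% interval -0.92 to 1.29, adjusted p 0.939, edgeR), 0.03 for Dsp (-0.76 to 0.81, 0.988), -0.18 for Cdh1 (-1.02 to 0.65, 0.915) and -0.19 for Cldn7 (-1.59 to 1.21, 0.951). In MEF cells, where 1.38% passed, it was -0.28 for Itgb4 (-1.71 to 1.16, 0.953), -0.68 for Dsp (-1.62 to 0.27, 0.676), -0.61 for Cdh1 (-1.89 to 0.67, 0.824) and 0.37 for Cldn7 (-1.44 to 2.18, 0.948). For each of the 4 genes the interval in at least 1 state includes a 2-fold difference, so the data do not show that B12 left them unchanged. Without the OSKM library of clone 1 the differences in OSKM cells were 0.36 for Itgb4, -0.05 for Dsp, -0.44 for Cdh1 and -0.50 for Cldn7 (adjusted p 0.907 to 0.996). Without clone 1 the difference in MEF cells was -0.92 for Cldn7, the other direction, and -1.30 for Cdh1. In OSKM cells the sign also turned without clone 1 for Cldn7 (0.04) and Dsp (-0.34) and without clone 3 for Cdh1 (0.05). Averaged over both states, where 3.84% of genes passed, the 4 adjusted p-values lay between 0.632 and 0.971.

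**Figure D3:**
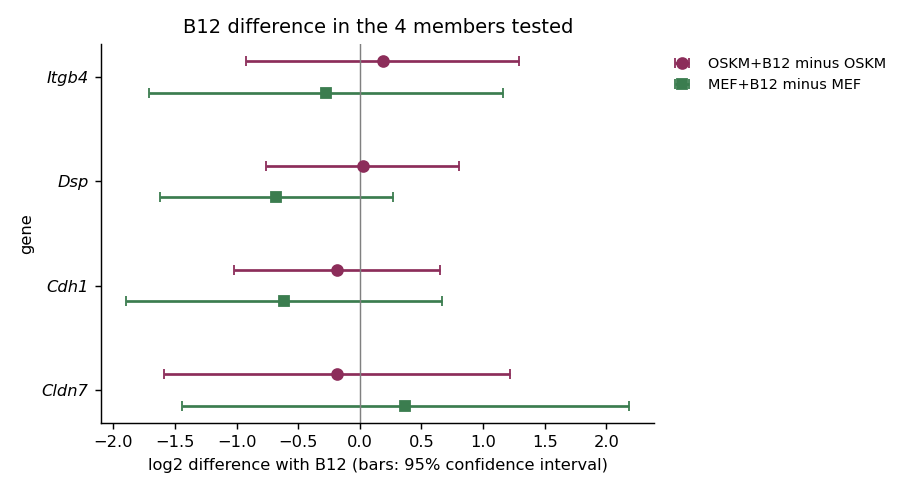
Log2 difference with B12 in OSKM and in MEF cells for the 4 members tested, as points with 95% confidence intervals from the fit over all 12 libraries. All 8 intervals include 0, and the widest, for Cldn7 in MEF, runs from -1.44 to 2.18.

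By clone, B12 in MEF cells went with less Itgb4 in all 3 (log2 CPM differences of -0.32, -0.52 and -0.13), and in OSKM cells with more in clones 1 and 2 (0.31 and 0.15) and less in clone 3 (-0.10). The interaction, which asks whether the B12 difference itself differed between states, gave 0.46 on the log2 scale for Itgb4 (95% interval -1.35 to 2.27, adjusted p 1), and 0% of genes passed it (0 by edgeR, with 273 at an unadjusted p under 0.05, and 0 by DESeq2). The fit above holds the clone's level the same in both states, which Itgb4 did not do. With a block for each clone and state, added after the values were seen, its interaction was 0.46 (0.12 to 0.80, unadjusted p 0.0137, adjusted p 0.992), and its B12 difference was -0.31 in MEF (-0.58 to -0.04, adjusted p 0.296) and 0.15 in OSKM (-0.06 to 0.35, adjusted p 0.511). The narrower intervals placed Itgb4 within less than 2-fold of no B12 difference in either state, and it still did not pass over all genes. For the genes that were not tested, the ratio of summed counts with B12 over without was 1.17 for Cldn3 in OSKM cells (95% exact interval 0.597 to 2.29), 1.05 for Epcam (0.394 to 2.82) and 1.14 for Ocln (0.481 to 2.74), and in MEF cells it was 1.94 for Epcam (0.782 to 5.23) and 1.27 for Ocln (0.632 to 2.60). Macrophage markers moved with B12 in the same libraries, and all 6 were higher in both states. The threshold was passed by 4 of 6 in OSKM cells and 5 of 6 in MEF cells, beside 1.06% and 1.38% of all genes tested. Their summed levels were 1058 to 1764 CPM in OSKM, 1573 to 1960 in OSKM+B12, 1040 to 1981 in MEF and 1510 to 2521 in MEF+B12, with none at 0. Their part in the members' values was not tested.

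Around the 9 members, 69 further genes of the hemidesmosome, adherens junction, desmosome, tight junction, epithelial regulators and repressors were listed, of which 57 could be tested. With induction 1 of the 57 passed without B12 and the same 1 with it, beside 0.073% and 0.104% of all genes tested. It was Pkp1 (plakophilin 1), a desmosomal plaque protein that binds desmoplakin. Pkp1 had 2, 0 and 0 counts in MEF and 1, 0 and 0 in MEF+B12, against 153, 195 and 3 in OSKM, then 143, 259 and 1 in OSKM+B12. The ratio of summed counts was 165 without B12 (95% exact interval 45.4 to 1371, counting error only), and 138 (37.6 to 1146) without the OSKM library of clone 1. In edgeR its adjusted p was 0.000272 without B12 and 0.00017 with it, and 0.00289 and 0.000518 without that library. Pkp1 passed the low-count filter through its induced libraries alone, and with no filter it was also called (7.05e-10 and 2.46e-10). The counts were high in clones 1 and 2 and at the floor in clone 3, the same split as for Itgb4, Dsp and Cldn3. The call was lost without clone 1 (adjusted p 0.0928 without B12 and 0.0849 with it), without clone 2 (0.0686 and 0.0504) and without the clone block (0.705 and 0.966), and held without clone 3 (0.000668 and 0.000506). The medians over the 57 genes were -0.04 without B12 and 0.04 with it on the log2 scale, beside -0.008 and 0.002 over all genes tested. They pool lists that differed. Without and with B12 the medians were 0.67 and 0.70 for the desmosome and 0.49 and 0.30 for epithelial regulators and surface proteases. For the tight junction they were 0.05 and 0.12, and for the hemidesmosome -0.20 and -0.006. For the adherens junction they were -0.11 and -0.07, and for the repressors -0.04 and -0.06.

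The number of junction and regulator genes past the threshold was higher without clone 3, the clone seen above to differ least with induction. These calls describe clones 1 and 2 alone. Clone 3 was singled out by its small induction differences, so more calls were built into this comparison. The 57 genes were also listed with earlier results of these data known, so their share beside all genes is a description with no test. Over all genes tested 14 calls became 1322 without B12 and 20 became 1004 with it. Without clone 3, 17 of 57 passed without B12, 11 higher and 6 lower, where 6.87% of all genes tested passed. With B12, 17 passed, 12 higher and 5 lower, where 5.22% did. Genes higher in both media included the laminin chain Lamb3 (log2 difference 1.84 without B12, adjusted p 0.000875), the desmosomal cadherin Dsc2 (3.10, 0.00907), the plaque protein envoplakin (Evpl; 2.31, 0.00209), Perp (1.08, 0.022) and plakoglobin (Jup; 0.43, 0.027), and also the tight junction genes F11r (0.69, 0.01) and Cldn1 (1.17, 0.0197) and the epithelial transcription factors Elf3 (2.98, 0.0426) and Trp63 (1.08, 0.0115). Genes lower in both media were the cadherins Cdh2 (-0.41, 0.0213) and Cdh3 (-0.45, 0.00628), Nectin2 (-0.52, 0.00916), Pkp2 (-0.77, 0.0146) and Itga6 (-0.45, 0.012). Itga6, the partner chain of β4, was thus lower with induction in the clones in which Itgb4 was highest. These 2 clones leave 4 libraries per state, and p-values of that fit speak for 2 embryos only. The libraries left include the OSKM library of clone 1, whose pseudogenes stood apart, and no fit was run without both it and clone 3.

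With all 3 clones, 5 of the 57 genes differed between clones in their response to induction, beside 2.15% of all genes tested. They were Evpl (adjusted p 0.0037), Lamb3 (0.0096), Cdh3 (0.0106), Perp (0.0118) and Nectin2 (0.0132). Lamb3, a chain of the laminin that α6β4 integrin binds, differed by 1.73, 1.90 and 0.41 in clones 1 to 3 without B12 and by 2.35, 1.97 and -0.0036 with it. Evpl differed by 2.14, 2.31 and -0.35 without B12. In the other direction, Nectin2, a cell adhesion molecule of adherens junctions, differed by -0.40, -0.65 and -0.07. None of these 5 passed without clone 3 (adjusted p 0.871 to 0.953), nor did any other gene tested. Nectin2 was also lost without clone 2 (0.113), while all 5 passed without the OSKM library of clone 1 (0.00173 to 0.0038).

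**Figure D4:**
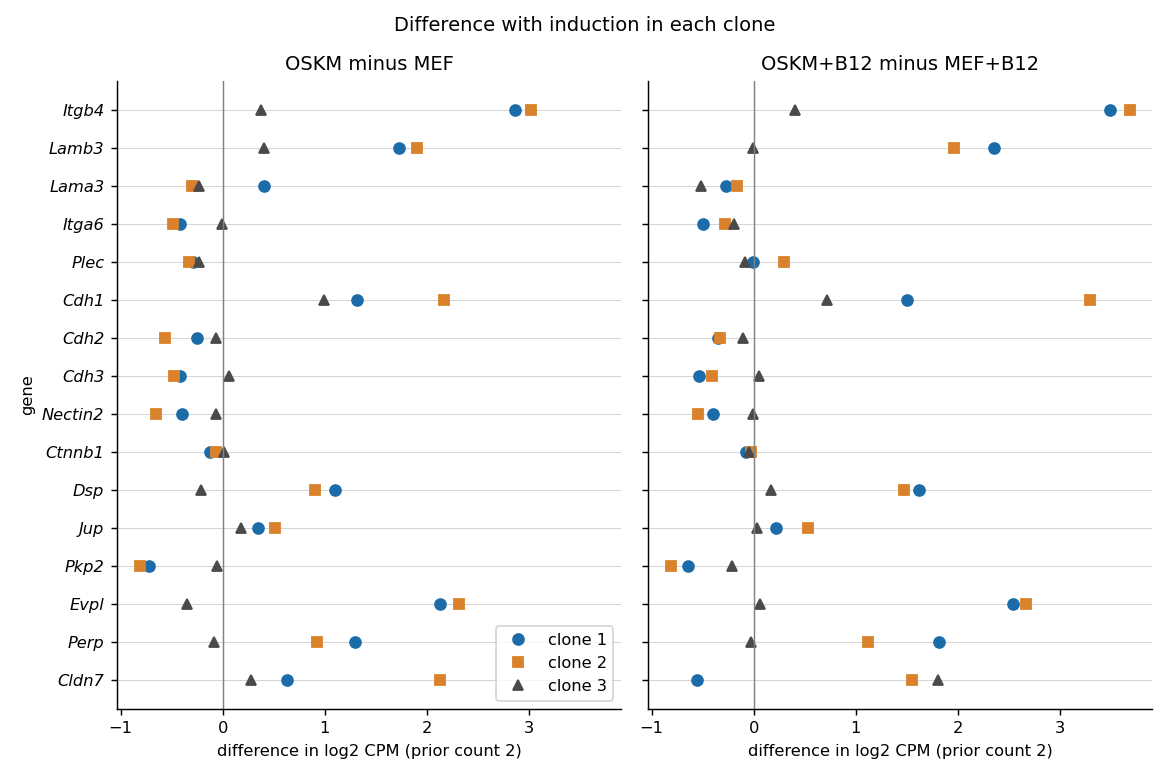
Difference in log2 CPM (prior count 2) with induction in each clone, without B12 on the left and with B12 on the right, for the 4 members tested and junction partners. For Itgb4, Lamb3, Dsp, Evpl and Perp the triangles of clone 3 lie nearest to 0 or below it, as for Itgb4 with 0.37 and 0.40, while Ctnnb1 lies close to 0 in all 3 clones.

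In the fit over all clones none of the other direct partners passed the threshold for induction. The fitted values that follow are for induction without B12. In the hemidesmosome, Itga6 differed with induction by -0.31 ± 0.10 (SE, log2, adjusted p 0.174), Plec by -0.29 ± 0.09 (0.174) and Lama3, a laminin chain, by -0.06 (0.897). With B12 the log2 CPM differences in clones 1 to 3 were -0.50, -0.29 and -0.19 for Itga6. For Plec they were -0.01, 0.30 and -0.09, so its lower level was not seen in that medium. Of the adherens junction genes, Ctnnb1 differed without B12 by -0.06 ± 0.05 (0.529) and Cdh2 by -0.30 ± 0.08 (0.163), none past the threshold. Tjp1 differed without B12 by 0.05 ± 0.09 (0.799). Of the 9 repressors of epithelial genes, which include Snai1, Snai2, Zeb1 and Zeb2, 0 passed in any of the comparisons by edgeR. For induction without and with B12, 0 and 2 had an unadjusted p under 0.05, beside 3641 and 2854 of the 19174 genes tested. For the B12 average 6 of the 9 did, beside 2964 of the 19174. DESeq2 called 0 for induction and 1, Snai2, for the B12 average. Zeb1 had 108 ± 5.49 CPM in MEF and 105 ± 12.7 in OSKM, and Snai1 42.9 ± 1.73 and 40.7 ± 4.49 (SD, n = 3). With B12, 1 of the 57 genes passed in the average over states, where 3.84% of all genes tested passed, so the list did not stand out. It was vinculin (Vcl), which links cadherin and integrin complexes to actin, with a log2 difference of -0.18 ± 0.04 (adjusted p 0.0358). That call was lost when any clone was left out (0.155 to 0.259) or the OSKM library of clone 1 (0.0678). In OSKM and in MEF cells taken alone 0 of 57 passed by edgeR or DESeq2, with 9 at an unadjusted p under 0.05 in each. Over all 19174 genes tested 1.06% and 1.38% passed there by edgeR, and 1883 and 1972 had an unadjusted p under 0.05.

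The sums of mesothelial, keratin and endothelial markers also moved with the split between clones, though not every gene in them did. The mesothelial markers summed to 25.6, 27.3 and 38.0 CPM in MEF clones 1 to 3, 23.2 to 31.6 in MEF+B12, 66.7, 51.1 and 31.7 in OSKM and 36.2 to 70.4 in OSKM+B12, with none at 0. The keratin genes summed to 30.1, 23.3 and 10.4 CPM in OSKM clones 1 to 3 against 6.96, 10.0 and 9.56 in MEF. The 7 endothelial markers summed to 145, 125 and 53.1 CPM in OSKM, 48.9 to 139 in OSKM+B12, 41.9 to 46.6 in MEF and 42.3 in each MEF+B12 library, mostly from Tek, with Emcn at 0 in MEF and Cldn5 at 0 in OSKM+B12. The clone difference in response passed for 5 of 6 mesothelial, 3 of 5 tested keratin and 2 of 3 tested endothelial genes, beside 2.15% of all genes tested. Some genes did not follow the sums. In clones 1 to 3 without B12, Wt1 differed with induction by 0.12, -0.57 and -0.01 on the log2 CPM scale. Krt18 differed by -0.02, 0.18 and -0.40, and Kdr by -0.05, -0.09 and 0.07. Schwann cell markers, which share Itgb4 expression, summed to 3.23 to 5.52 CPM over all libraries, with 0 of 6 passing in any comparison. The part of these cell types in the members' values was not tested.

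The genes whose level followed Itgb4 most closely were the calcium-binding Anxa8 (Pearson r of log2 CPM 0.990), Fgd5 (0.989), Add3 (0.986), Pi16 (0.986) and Plekha6 (0.983), over 12 libraries and among 11936 genes with a mean log2 CPM of at least 1. All 5 were high in the same 4 libraries, the induced ones of clones 1 and 2. Pi16 had 132 to 151 CPM there, 22.8 to 24.9 in the induced libraries of clone 3 and 9.15 to 17.9 in the 6 uninduced libraries. For Dsp the nearest were Nhsl1 (0.960), Acaa2 (0.957), Abca6 (0.953), Gngt2 (0.942) and Cadm3 (0.941), and for Cdh1 Col2a1 (0.971), Papss1 (0.959), Spin4 (0.958), Cldn1 (0.958) and Prss12 (0.957). Cldn1, a claudin that was not on the list of 9, had 4.41 to 5.34 CPM in those 4 libraries, 1.66 to 1.95 in the induced ones of clone 3 and 1.38 to 2.64 in the uninduced ones. These coefficients describe 12 libraries that fall into a high set of 4 and a low set of 8 and share their 3 clones, and are not a test.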

How the data were processed

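Poly(A) RNA was sequenced from 12 libraries as strand-specific paired-end reads. The deposited file held raw counts per gene, which the authors made by aligning reads to GRCm38 with STAR (2.5.2 in the submitters' processing notes; Ensembl annotation), counting with featureCounts with strand and adding flow cells. The totals of 56971244 to 79236795 counts set the precision. From these counts, edgeR 4.0.16 quasi-likelihood F tests with clone and group, TMM scaling and the filterByExpr filter were run over 19174 genes, with Benjamini-Hochberg adjustment and a threshold of 0.05. The difference between clones was an F test of clone by state with B12 within state. Symbols came from GENCODE M21 (55480 of 55573 identifiers matched), and levels between genes were divided by the exon union. The 9 members and all other lists were chosen with earlier results of these data known, and 1 listed gene is not reported here and was left out of all list counts. Named genes were the members, listed genes past the threshold (at most 5 per list), direct partners of the members and the 5 genes most correlated with each of the 3 highest members. Each clone is 1 embryo that gave a library to every group, so clone was the block. Deviations from group means correlated by 0.27 to 0.69 within clones (18 pairs) and by at most 0.17 between clones. The fit was tested on simulated data. Alternatives were DESeq2 1.42.0, other scaling and filters, no block, single clones left out and the groups compared alone. P-values speak for 3 embryos. The sample titles name 2022 for clone 1 but 2021 for the other clones, so the year and clone 1 cannot be told apart. The labels give doxycycline in µg/mL, the study's methods in mg/mL, and the label was used. Values were computed with Python 3, pandas and SciPy.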

Additional observations from a re-analysis of the deposited data

Results flagged for a closer look

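The response to induction differed between the 3 clones for 8 of the members, junction genes and reprogramming factors by the F test of clone by state (edgeR, all genes adjusted): Itgb4 (adjusted p 0.00027), Myc (0.000653), Evpl (0.0037), Lamb3 (0.0096), Cdh3 (0.0106), Perp (0.0118), Nectin2 (0.0132) and Sox2 (0.0156). Over all genes tested 2.15% passed. Itgb4 was chosen through the same libraries, and the lists with earlier results of these data known. These p-values are therefore no independent support for a response to induction. In the plain per-clone differences without B12, Itgb4 gave 2.86, 3.02 and 0.37 (log2 CPM, clones 1 to 3), Myc 1.25, 1.42 and 0.11, and Sox2 4.50, 4.59 and 2.53. All 8 fell short of the threshold for a difference between clones 1 and 2 alone, as did every other gene tested.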

How the results depend on the processing

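For B12, 0 members passed in every alternative that gave them an adjusted p, and the adjusted p of a member was never below 0.224. Without the replicate block, which pairs the libraries of 1 embryo, the Itgb4 differences with B12 were 0.20 in OSKM and -0.30 in MEF cells (adjusted p 1 for both), and its induction differences were 2.40 and 2.90; the pairing changed no call of a member. Over 266 values of single members under alternatives, 265 neither reversed a called value nor changed side of the threshold and 1 did: the clone difference, where 1 member passed, gave 0 to 1 when one clone was left out, the 0 being without clone 3 (Itgb4 adjusted p 0.882).

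Counts over all genes moved more. For B12 in OSKM cells 204 became 388 with DESeq2, 364 without the filter, 108 with the 6 libraries compared and 344 with blocks by clone and state. In MEF cells 264 became 469, 425, 845 and 443 by the same changes and 409 with library totals. Without the block these were 0 and 0, and the average fell from 736 to 90. Leaving out a clone gave as little as 0, 0 and 34 (clone 2), and 13, 29 and 317 without clone 3. For induction 14 and 20 became 487 and 416 with DESeq2, 681 and 646 without the filter, 2 and 1 at 10 counts in every library, 0 and 0 without the block, 4 and 6 with the 6 libraries compared, 1 and 2 without clone 1, 1 and 1 without clone 2, and 1322 and 1004 without clone 3; without the OSKM library of clone 1 the first was 5. For the clone difference 413 became 1257 without the filter, 838 without that library, and 724, 195 and 0 without clones 1, 2 and 3. Of the 57 junction and regulator genes, the 1 called with induction became 9 and 6 with DESeq2, 10 and 11 without the filter, 17 and 17 without clone 3, and 0 at 10 counts, without the block, without clone 1 or 2, and with 6 libraries. The 1 called in the B12 average became 3 with DESeq2, 2 under the other scalings and filters, 6 with the clone and state blocks and 0 without the block, without clone 1 or 2 and without the OSKM library of clone 1, and the 5 of the clone difference became 8 with DESeq2, 12 without the filter, 9 without clone 1 and 0 without clone 3. For B12 in OSKM and in MEF cells, 0 became 1 and 1 with the clone and state blocks, and 1 in MEF cells with 6 libraries. The cause was not tested. At 3 counts the floor limits what can be said of Cldn4 and Esrp1.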
